A study of Mus musculus with 12 samples.

Results

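The genes described here are 9 genes on chromosome 9 whose RNA differed between FlipFlop and B6 T cells: *Tmem108*, *Cpne4*, *Col6a4*, *Rpl29*, *Abhd14a*, *Abhd14b*, *Hemk1*, *Cacna2d2* and *Bsn*. They were chosen by symbol among 12809 listed genes because they start within a 6 Mb stretch of the chromosome and had been seen to differ between the strains within each lineage, so their strain differences are given as a description with no test. RNA was sequenced from CD4 and CD8 T cells sorted from lymph nodes (LN) in 12 libraries, 3 for each coreceptor in B6 mice and 3 for each in FlipFlop mice. B6 is the C57BL/6 inbred strain. In FlipFlop mice both copies of chromosome 6 carry a *Cd4* gene altered to encode CD8αβ.1 and a *Cd8a* gene altered to encode CD4, so that the coreceptor proteins are made from each other's genes. The altered *Cd4* gene came from 8in4 mice, made in B6 embryonic stem cells, and the altered *Cd8a* gene came from 4in8 mice, made in 129R1 embryonic stem cells. By the labels all mice were female, at 10 weeks for B6 and 14 weeks for FlipFlop, so strain and age cannot be told apart, whereas the methods give the mice of the study a lower upper age and both sexes, with exceptions allowed. The labels do not say how many mice gave each library, and p-values measure the spread between libraries, which may be technical.

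B6 CD4 and FlipFlop CD8 T cells are of the helper lineage, which makes the factor ThPOK and helps other immune cells, and B6 CD8 and FlipFlop CD4 T cells are of the cytotoxic lineage, which kills infected cells. The strain difference is therefore FlipFlop CD8 minus B6 CD4 in helper cells and FlipFlop CD4 minus B6 CD8 in cytotoxic cells. The 9 genes do not form a pathway. *Rpl29* encodes a protein of the large ribosomal subunit, and *Abhd14a* and *Abhd14b* encode hydrolases of the alpha/beta fold. *Hemk1* encodes a methyltransferase that modifies translation release factors, *Cpne4* a copine, which binds membranes when calcium is present, and *Col6a4* a chain of type VI collagen. *Tmem108* encodes a membrane protein known from neuronal endosomes, *Cacna2d2* an auxiliary subunit of voltage-gated calcium channels, and *Bsn* encodes bassoon, a scaffold of the presynaptic active zone.

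Values are CPM, or reads of a gene for a fixed number of reads in the library, scaled by a TMM factor that corrects for library composition. The libraries held 26600000 to 33100000 reads on the listed genes, so that 3 reads, taken as the limit that a count of 0 allows for, equal 0.0857 to 0.120 CPM. It covers no other source of error. As a check of the labels, *Zbtb7b*, which encodes ThPOK, was at 192 to 203 CPM in the B6 CD4 libraries and 162 to 172 CPM in those of FlipFlop CD8, and at 2.79 CPM or less in the others. The T cell gene *Cd3e* was at 336 to 410 CPM in all 12 libraries. Summed over marker lists, T cell genes (10 of 10 listed) reached 6079 to 8775 CPM, B cell genes (8 of 8) 549 to 686 CPM, myeloid genes (4 of 8) 6.26 to 28.8 CPM, naive T cell genes (6 of 6) 4242 to 5747 CPM and memory or effector T cell genes (8 of 8) 734 to 1549 CPM. NK cell genes (5 of 6) were at 14.1 to 87.0 CPM in helper and 298 to 518 CPM in cytotoxic libraries. The stromal genes *Col1a1*, *Col3a1*, *Dcn* and *Pdpn* and the endothelial genes *Cdh5*, *Kdr*, *Vwf* and *Lyve1* are not in the table, the 2 of 8 stromal genes listed summed to 0.0919 to 1.59 CPM, and the 1 of 5 endothelial genes listed, *Pecam1*, was at 112 to 186 CPM. Most of these lists differed between the strains in at least 1 lineage without overlap. Red blood cell genes (4 of 5) summed to 15.9 to 28.8 CPM in B6 and 6.67 to 14.2 CPM in FlipFlop libraries. In helper cells, B6 CD4 and FlipFlop CD8 libraries were at 371 to 457 and 921 to 1081 CPM for regulatory T cell genes (6 of 6), 734 to 1016 and 1180 to 1549 CPM for memory or effector genes, 5078 to 5554 and 4242 to 4498 CPM for naive genes, and 6976 to 8775 and 6079 to 6803 CPM for T cell genes. In cytotoxic cells, B6 CD8 and FlipFlop CD4 libraries were at 1302 to 1494 and 941 to 990.2 CPM for memory or effector genes, 478 to 518 and 298 to 302 CPM for NK cell genes, 10.1 to 22.1 and 6.26 to 8.55 CPM for myeloid genes, and 112 to 121 and 154 to 165 CPM for *Pecam1*. The summed stromal genes were higher in FlipFlop in both lineages, at 0.0919 to 0.226 and 0.321 to 0.562 CPM in helper and 0.449 to 0.6003 and 0.624 to 1.59 CPM in cytotoxic cells, and B cell genes overlapped in both. Their part in the values below was not tested. In bulk RNA, fewer cells of a type and less RNA per cell cannot be told apart.

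*Rpl29* (ENSMUSG00000048758.14, GRCm38 chr9:106429454-106431568, plus strand) had the highest level of the 9 genes. In helper cells it was at 1309, 986 and 994 CPM in the B6 CD4 libraries and at 48.5, 441 and 42.3 CPM in the FlipFlop CD8 libraries. In cytotoxic cells it was at 1155, 1123 and 1126 CPM in the B6 CD8 libraries and at 60.3, 591 and 54.5 CPM in the FlipFlop CD4 libraries. Every FlipFlop library was below every B6 library, and in both FlipFlop groups library 2 was far above the other libraries of its group. The FlipFlop mean was 16.2% of the B6 mean in helper cells (177 ± 229 against 1096 ± 184 CPM, SD, n = 3 each) and 20.7% in cytotoxic cells (235 ± 308 against 1135 ± 17.7 CPM). The SD of each FlipFlop group was larger than its mean, and without library 2 the FlipFlop means were 4.14% and 5.05% of the B6 means.

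Other genes in the reference carry nearly the same coding sequence as *Rpl29*. Of the 483 coding bases of *Rpl29*, 25 other annotated genes on 14 chromosomes matched at least 300 aligned bases at 95% identity or more, and 4 of them are in the table: *Gm13841* (chr5:115801677-115802159, minus strand), *Gm8210* (chr1:43189156-43189638, plus strand), *Gm6344* (chr13:55085777-55086259, plus strand) and *Gm3550*. The first 3 are annotated as processed pseudogenes, which are copies of an mRNA set into the genome, and each differs from *Rpl29* at 3 of 483 bases. Counted from 1 at the A of the start codon, with the base of *Rpl29* first, *Gm13841* and *Gm8210* have the same substitutions, C72A, C300T and T423C, and *Gm6344* has C300T, T423C and G454A. Coding bases 41 to 140 of *Rpl29* and of *Gm13841* are printed to show how little separates reads of the genes, with the base that differs in capitals. The stretch of *Gm8210* is the same as that of *Gm13841*, and the stretch of *Gm6344* is the same as that of *Rpl29*.
Rpl29: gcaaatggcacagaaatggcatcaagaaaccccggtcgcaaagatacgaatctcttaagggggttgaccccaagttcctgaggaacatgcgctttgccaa
Gm13841: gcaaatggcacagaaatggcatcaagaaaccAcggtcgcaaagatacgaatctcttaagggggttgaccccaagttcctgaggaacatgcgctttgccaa
These sequences are from the GENCODE M21 transcripts of the GRCm38 reference, which is a B6 genome, and no FlipFlop sequence was analysed here.

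These copies, picked for description after their values were seen, also differed between the strains. *Gm13841* was at 0.115 to 0.366 CPM in the 6 B6 libraries, at 19.1, 31.3 and 273 CPM in the FlipFlop CD8 libraries and at 364, 216 and 385 CPM in the FlipFlop CD4 libraries. *Gm8210* was at 0 in all 6 B6 libraries, at 382, 138 and 59.0 CPM in the FlipFlop CD8 libraries and at 132, 0.0304 and 25.6 CPM in the FlipFlop CD4 libraries. The split between both copies thus varied widely within a group, with *Gm8210* higher in FlipFlop CD8 libraries 1 and 2 and *Gm13841* higher in FlipFlop CD8 library 3 and in all FlipFlop CD4 libraries. *Gm6344*, which lacks C72A, went the other way and was at 2.10 to 3.87 CPM in B6 libraries, at 1.25 and 1.23 CPM in FlipFlop CD8 and CD4 library 2, and at 0.0781 CPM or less in the other 4 FlipFlop libraries. *Gm3550* was at 0.474 to 0.826 CPM in B6 and at 0.435 CPM or less in FlipFlop libraries.

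Summed with its 4 listed copies, *Rpl29* was at 1314, 989 and 997 CPM in the B6 CD4 libraries, 449, 612 and 374 CPM in those of FlipFlop CD8, 1159, 1126 and 1129 CPM in those of B6 CD8, and 556, 809 and 465 CPM in those of FlipFlop CD4. The copies held 0.275% to 0.378% of the sum in B6 libraries. They held 89.2%, 27.9% and 88.7% in the FlipFlop CD8 libraries and 89.2%, 26.9% and 88.3% in the FlipFlop CD4 libraries. Libraries 1 and 3 of both FlipFlop groups therefore had nearly one share, and library 2 of both another. The strain difference of *Rpl29* alone was -3.33 on the scale of log2(CPM + 0.5), and that of the sum was -1.08. All FlipFlop sums remained below all B6 sums. The sums hold only the 4 listed of 25 near-identical genes, so any reads assigned to the others are missing. How reads that match several places were assigned is not given in the sources used here, and its part in the difference of *Rpl29* was not tested. Whether FlipFlop mice carry sequence of strain 129, the source of the cells in which the *Cd8a* gene was altered, at *Rpl29* or its copies was not tested either, so the value of *Rpl29* alone is one of reads assigned to this gene of the reference.

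**Figure D1:**
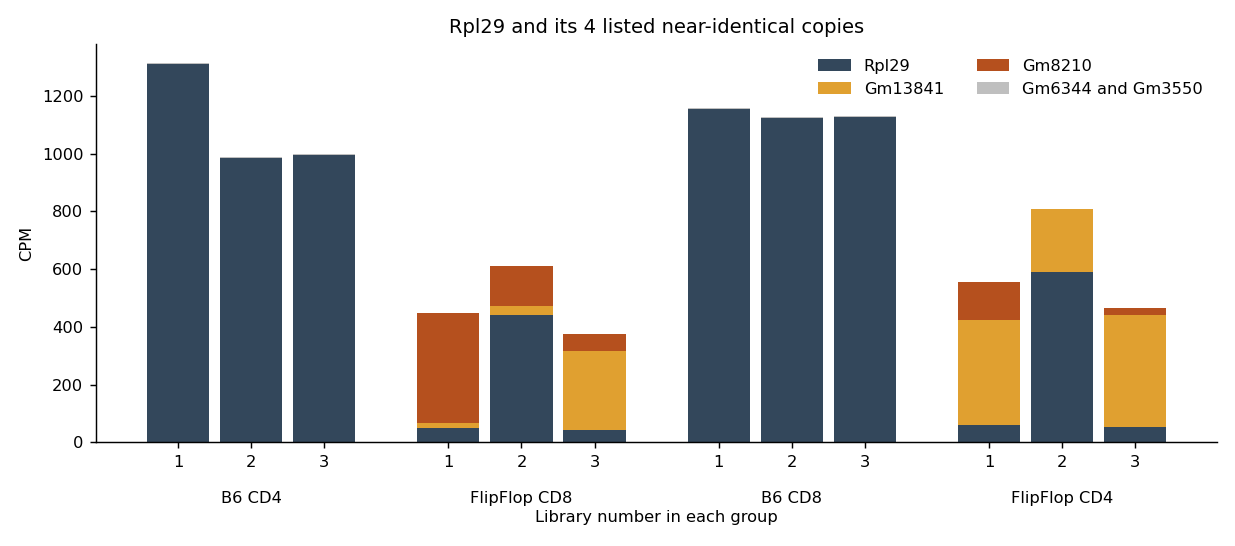
Stacked bars of CPM per library for *Rpl29* and its 4 listed near-identical copies, with the libraries of each group numbered 1 to 3 (n = 1 library per bar). In B6 libraries nearly the whole bar is *Rpl29*, while in FlipFlop libraries 1 and 3 the copies *Gm13841* and *Gm8210* hold most of it, and library 2 of both FlipFlop groups lies between.

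The 2 genes next to *Rpl29* with large differences were the pair of hydrolase genes. *Abhd14b* (ENSMUSG00000042073.15, chr9:106447459-106452923, plus strand) encodes an enzyme known to remove acetyl groups from lysine, and *Abhd14a* (ENSMUSG00000042210.17, chr9:106440051-106447678, minus strand) a relative of it. They lie head to head, their annotated bodies share 220 bases, and all 3 genes fit within 23.5 kb. The counting is not stated to use strand, so reads from the shared bases, and from the antisense gene *Gm28959* in *Abhd14b*, cannot be told apart. The same limit holds for *Tmem108*, *Col6a4*, *Cacna2d2* and *Bsn*, which also overlap annotated genes on the opposite strand. *Abhd14b* was at 7.14, 5.58 and 5.61 CPM in B6 CD4 libraries and 0.611, 3.17 and 0.343 CPM in FlipFlop CD8 libraries. In cytotoxic cells it was at 7.79, 8.88 and 7.69 CPM in B6 CD8 libraries and 0.295, 3.15 and 0.260 CPM in FlipFlop CD4 libraries. The strains did not overlap, and library 2 was again the highest of both FlipFlop groups. Its FlipFlop mean was 22.5% of the B6 mean in helper cells and 15.2% in cytotoxic cells, and without library 2 it was 7.80% and 3.42%.

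*Abhd14a* had the same order with a smaller difference. It was at 7.48, 7.36 and 5.54 CPM in B6 CD4 libraries and 3.18, 5.85 and 2.23 CPM in FlipFlop CD8 libraries, where FlipFlop library 2 lay above the lowest B6 library. In cytotoxic cells it was at 7.12, 8.68 and 7.69 CPM in B6 CD8 libraries and 1.81, 4.17 and 1.90 CPM in FlipFlop CD4 libraries, with no overlap. It was the 1 gene of the 9 whose strains overlapped in a lineage. Of the genes beside this group, *Acy1*, which encodes an aminoacylase and begins at 106432981, between *Rpl29* and *Abhd14a*, differed by 0.21 ± 0.08 (log2, SE), and *Pcbp4*, an RNA-binding protein gene that begins at 106453291, by -0.03 ± 0.10. *Dusp7*, which begins at 106368632, differed by -0.60 ± 0.12, *Parp3*, which begins at 106470322, by -0.77 ± 0.10 and *Rrp9*, which begins at 106475963, by -0.32 ± 0.05.

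*Cpne4* and *Col6a4* were at or near 0 in B6 and present in FlipFlop cells. *Cpne4* (ENSMUSG00000032564.16, chr9:104547286-105034544, plus strand) was at 0 in 5 of 6 B6 libraries and at 0.0400 CPM in B6 CD8 library 2, which is under 3 reads. It was at 13.9, 11.0 and 15.004 CPM in FlipFlop CD8 and at 28.5, 19.6 and 31.5 CPM in FlipFlop CD4 libraries. Set against 3 reads in the B6 library where they weigh most, the FlipFlop mean was at least 118-fold higher in helper and at least 221-fold higher in cytotoxic cells.

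*Col6a4* (ENSMUSG00000032572.9, chr9:105989454-106096783, minus strand) was at 0 in 5 of 6 B6 libraries and at 0.0323 CPM in B6 CD4 library 2. It was at 3.54, 1.92 and 4.401 CPM in FlipFlop CD8 and at 14.7, 8.88 and 14.4 CPM in FlipFlop CD4 libraries, which is at least 29.1-fold higher in helper and at least 106-fold higher in cytotoxic cells. For both genes every FlipFlop CD4 library was above every FlipFlop CD8 library, and library 2 was the lowest of each FlipFlop group. Type VI collagen is made mostly by stromal cells, and the other type VI collagen genes *Col6a1*, *Col6a2*, *Col6a3*, *Col6a5* and *Col6a6* are not in the table.

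The reference sequence before the RefSeq starts of both genes is printed because B6 cells, which carry it, gave almost no reads of them. RefSeq (GRCm38.p6) has 2 starts for *Cpne4* and 1 for *Col6a4*, and the 250 bases before each were cut where an annotated exon of the gene begins. This left 78 bases (chr9:104569405-104569482, plus strand) and 250 bases (chr9:104587808-104588057, plus strand) for *Cpne4* and 158 bases (chr9:106096784-106096941, minus strand) for *Col6a4*. Both *Cpne4* stretches lie inside the gene as annotated in GENCODE, which begins at 104547286. The sequence before that point is not printed, and which start the FlipFlop cells use was not tested. Capitals mark matches on either strand to TATAAA (the TATA box), to CCAAT (the CCAAT box), to GGGCGG (the letters of a GC box) or to TGTGGT (the core of a Runx site).
Cpne4 start 1: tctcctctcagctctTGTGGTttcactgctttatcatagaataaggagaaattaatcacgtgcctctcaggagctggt
Cpne4 start 2: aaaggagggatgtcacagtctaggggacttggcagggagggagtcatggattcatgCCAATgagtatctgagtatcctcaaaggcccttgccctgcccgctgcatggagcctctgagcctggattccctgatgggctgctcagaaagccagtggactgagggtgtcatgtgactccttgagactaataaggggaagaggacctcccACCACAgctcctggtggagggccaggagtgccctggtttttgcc
Col6a4: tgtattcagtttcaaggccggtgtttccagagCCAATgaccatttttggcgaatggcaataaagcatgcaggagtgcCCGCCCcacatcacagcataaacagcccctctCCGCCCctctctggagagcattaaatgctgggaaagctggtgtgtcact
The first *Cpne4* stretch holds TGTGGT once, as do 4.64% of all 32851 RefSeq stretches of that length and place. The second holds CCAAT once and ACCACA, the reverse complement of TGTGGT, once, as do 33.9% and 14.1% of all. The *Col6a4* stretch holds CCAAT once and CCGCCC, the reverse complement of GGGCGG, at 2 places, against shares of 21.2% and 17.8% with at least 1. None holds TATAAA on either strand. The matches are letters found in these windows only. RefSeq promoters were on hand for 8 of the 9 genes, all but *Rpl29*.

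The other 4 of the 9 genes are *Tmem108*, *Hemk1*, *Cacna2d2* and *Bsn*. *Tmem108* (ENSMUSG00000042757.16, chr9:103482947-103761837, minus strand) was at 8.87, 5.88 and 5.73 CPM in B6 CD4 libraries and at 0.257, 1.89 and 0.229 CPM in FlipFlop CD8 libraries. In cytotoxic cells it was at 32.6, 27.6 and 26.7 CPM in B6 CD8 libraries and at 3.51, 15.8 and 4.201 CPM in FlipFlop CD4 libraries. FlipFlop means were 11.6% and 27.1% of the B6 means in helper and cytotoxic cells, and the strains did not overlap in either lineage. Without library 2, the highest of both FlipFlop groups, the means were 3.56% and 13.3% of those of B6.

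*Hemk1* (ENSMUSG00000032579.14, chr9:107327084-107338350, minus strand) was higher in FlipFlop. It was at 5.22, 4.42 and 3.16 CPM in B6 CD4 libraries and 9.35, 6.91 and 9.37 CPM in FlipFlop CD8 libraries, and at 1.84, 1.76 and 1.46 CPM in B6 CD8 libraries and 8.40, 4.39 and 5.61 CPM in FlipFlop CD4 libraries. The means were 2.003-fold higher in helper and 3.64-fold higher in cytotoxic FlipFlop cells.

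*Cacna2d2* (ENSMUSG00000010066.15, chr9:107399612-107529343, plus strand), the next of the 9 genes along the chromosome, was also higher in FlipFlop. It was at 1.69, 1.87 and 1.78 CPM in B6 CD4 against 5.88, 4.60 and 6.06 CPM in FlipFlop CD8 libraries, and at 4.12, 3.72 and 3.54 CPM in B6 CD8 against 8.44, 5.69 and 8.11 CPM in FlipFlop CD4 libraries. Its means were 3.10-fold and 1.95-fold higher in FlipFlop.

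*Bsn* (ENSMUSG00000032589.14, chr9:108096022-108190384, minus strand), at the far end of the run, followed the same order. It was at 1.47, 3.23 and 2.05 CPM in B6 CD4 libraries and 7.81, 4.76 and 8.66 CPM in FlipFlop CD8 libraries, and at 3.97, 3.84 and 2.48 CPM in B6 CD8 libraries and 7.95, 5.04 and 8.59 CPM in FlipFlop CD4 libraries. The means were 3.15-fold higher in helper and 2.10-fold higher in cytotoxic FlipFlop cells. In *Hemk1*, *Cacna2d2* and *Bsn* the strains did not overlap, and FlipFlop library 2 was the lowest of its group each time.

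**Figure D2:**
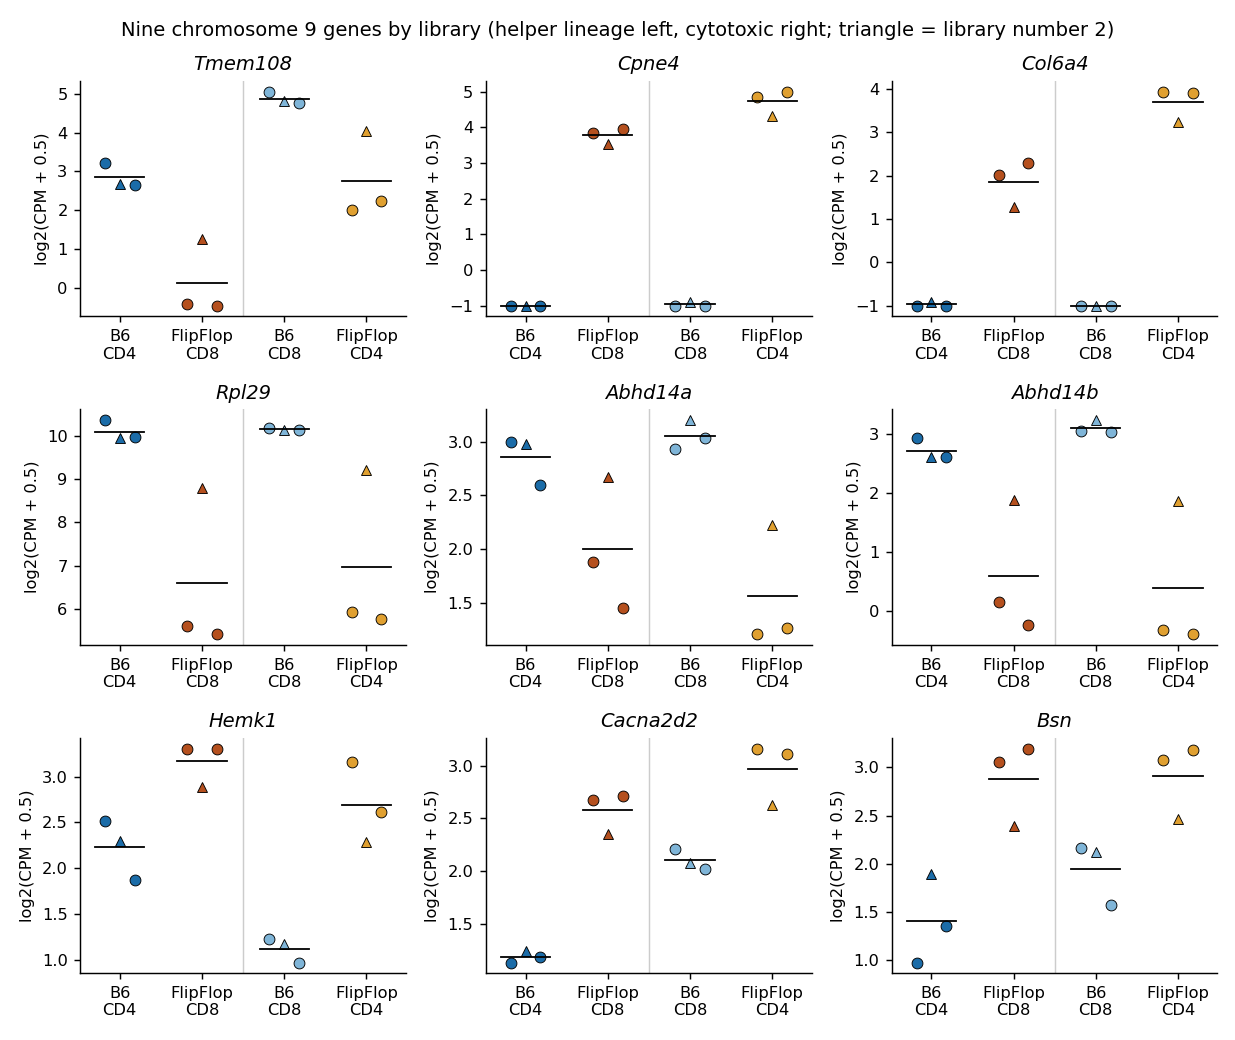
Points are single libraries on the scale of log2(CPM + 0.5), lines are group means (n = 3), triangles are libraries numbered 2, and the helper groups stand left of the grey line in each panel. The triangles of both FlipFlop groups lie nearer to B6 than the circles do in every panel.

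Over the 9 genes, 5 were higher and 4 lower in FlipFlop, each in one direction in both lineages. The median absolute strain difference was 2.42 on the log2 scale, against 0.16 over all 11595 tested genes. In *Cpne4* and *Col6a4* the fitted difference depends on the pseudocount, because B6 is at 0. Since the genes were chosen for this contrast, the counts that follow are set by the choice and nothing is read from them. All 9 had an adjusted p under 0.05 for the strain difference, as did 31.2% of all genes, 15.8% with higher and 15.4% with lower levels in FlipFlop. Within helper cells 8 of 9 did against 27.6% of all genes, within cytotoxic cells 7 of 9 against 7.92%, and 4 of 9 had an unadjusted p of 0.0001 with more than 5-fold against 0.345%. In 8 of 9 genes the strains did not overlap in either lineage, which held for 15.2% of all genes. The smallest of the 9 differences was that of *Cacna2d2* at 1.13 ± 0.11 (log2, SE), and the largest among the other genes of the stretch was that of *Acpp*, which encodes a prostatic-type acid phosphatase, at 0.93 ± 0.13.

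The 6 Mb stretch held 92 listed genes, of which 84 were tested. Of the 75 that are not among the 9 genes, 25 (33.3%) had an adjusted p under 0.05 for the strain difference (limma), 7 of them higher and 18 lower in FlipFlop, and 0 of the 25 differed by more than 2-fold. Their median absolute difference was 0.14, against 0.16 over all genes. The strains did not overlap in either lineage for 18 of the 75 (24.0%), against 15.2% of all tested genes, 5.88% in the 6 Mb below and 17.5% in the 6 Mb above. In the 6 Mb on either side, 4 of 17 genes (23.5%) below it and 12 of 40 genes above it passed, 0 and 2 of them with more than 2-fold. *Ryk*, the receptor gene nearest below the stretch, differed by 0.47 ± 0.16 (1.12 in helper and -0.17 in cytotoxic cells) and *Shisa5*, nearest above it, by -0.05 ± 0.06.

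The larger differences among the other genes of the stretch went in both directions. *Acpp* was at 19.3 ± 2.33 and 30.3 ± 4.33 CPM in B6 CD4 and CD8 and at 66.2 ± 12.9 and 33.4 ± 7.48 CPM in FlipFlop CD4 and CD8 libraries (SD, n = 3 each). *Parp3*, a DNA repair gene, differed by -0.77 ± 0.10, *Glyctk*, a glycerate kinase gene, by -0.75 ± 0.09, *Tusc2* by -0.65 ± 0.06, *Rnf123*, a ubiquitin ligase gene, by -0.62 ± 0.08 and *Dusp7*, a MAP kinase phosphatase gene, by -0.60 ± 0.12. *Cish*, an inhibitor of cytokine signalling, differed by 0.60 ± 0.17, *Dag1*, which encodes dystroglycan, by 0.52 ± 0.11, *Trf*, which encodes transferrin, by 0.44 ± 0.13 (1.077 in helper and -0.20 in cytotoxic cells) and *Mapkapk3*, a kinase gene, by -0.41 ± 0.09. Each of these 10 passed an adjusted p of 0.05, with values from 2.65e-05 for *Tusc2* to 0.0273 for *Trf*.

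**Figure D3:**
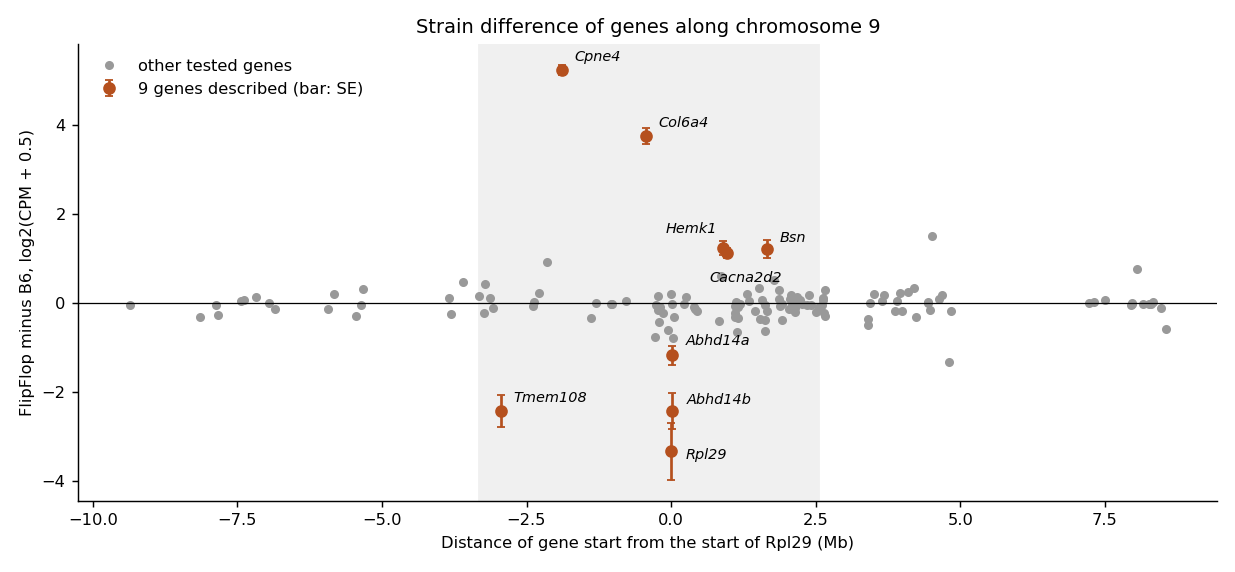
Each point is a tested gene of chromosome 9, placed by the distance of its start from that of *Rpl29* in Mb and by its FlipFlop minus B6 difference on the scale of log2(CPM + 0.5), with SE bars for the 9 genes and a grey band over the 6 Mb stretch. The 9 genes stand apart among neighbours that lie near 0.

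FlipFlop library 2 held an intermediate place in these genes. This was seen in the values and is given as a description. In all 18 combinations of gene and lineage, library 2 was the FlipFlop library nearest to the B6 mean, and in 17 of 18 it lay between all B6 libraries and FlipFlop libraries 1 and 3. The exception was *Abhd14a* in helper cells. On the way from the B6 mean (0%) to the mean of FlipFlop libraries 1 and 3 (100%), library 2 stood at 23.0% to 76.3% in helper cells (median 52.1%) and at 33.2% to 65.4% in cytotoxic cells (median 52.3%). For *Rpl29* it stood at 62.3% and 50.4%, and for *Hemk1* at 51.9% and 50.7%.

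Such a place in both lineages was found for 8 of the 9 genes and for 1.64% of all tested genes. Among the 84 tested genes of the stretch it was found for 14, namely these 8 and *Acpp*, *Glyctk*, *Parp3*, *Mapkapk3*, *Tusc2* and *Rnf123*. It was found for 0 of 17 genes in the 6 Mb below and 0 of 40 in the 6 Mb above. Since a gene needs a strain difference to show it, the genes whose strains did not overlap in either lineage can be set beside each other: 14 of 26 (53.8%) within the stretch and 159 of 1741 (9.13%) outside it. The place of library 2 was first seen in the 9 genes, and without them it was found for 6 of 18 (33.3%) within the stretch. Among flank genes whose strains did not overlap, this place was found for 0 of 1 in the 6 Mb below and 0 of 7 above. These are too few to mark an edge. In the flank above, *Tdgf1*, with a difference of 1.499 ± 0.08, did not show this place. Of libraries 1 and 3, the higher was at most 1.78 times the lower over the 9 genes. What FlipFlop CD4 and CD8 library 2 share is not stated in the labels.

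**Figure D4:**
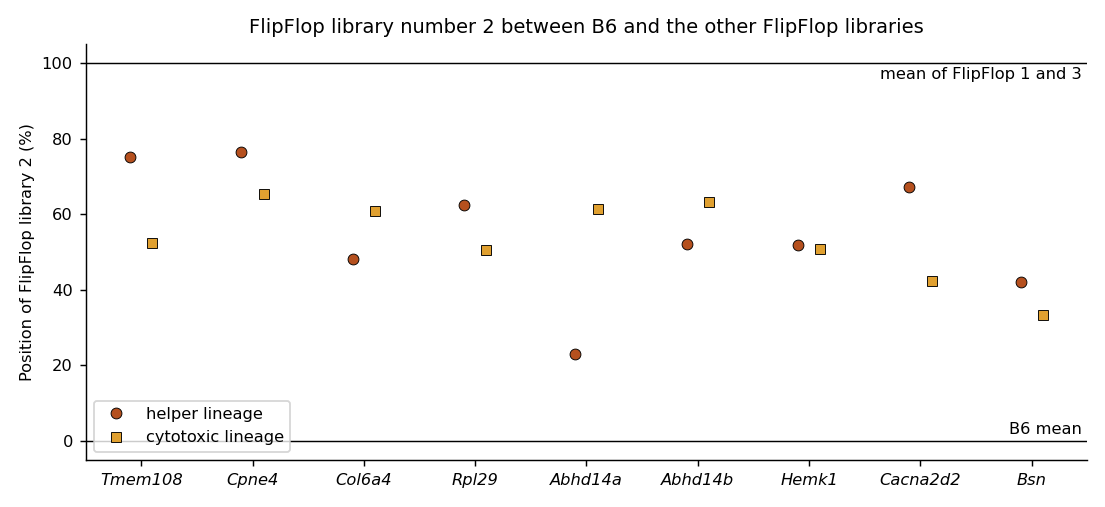
For each gene and lineage, a marker gives the CPM of FlipFlop library 2 as a percentage of the way from the mean of 3 B6 libraries (0%) to the mean of FlipFlop libraries 1 and 3 (100%). All 18 markers lie between both lines, from 23.0% to 76.3%.

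Without library 2 of both FlipFlop groups, an alternative added after the data were seen, the strain differences were larger and their errors mostly smaller. Library 2 was left out as the one nearest to B6 in 18 of 18 pairs of gene and lineage, so larger differences, smaller errors and less overlap are set by that choice and nothing is read from them. The strain difference of *Rpl29* went from -3.33 ± 0.64 to -4.43 ± 0.09 (log2, SE), that of *Abhd14b* from -2.42 ± 0.41 to -3.12 ± 0.12, and that of *Tmem108* from -2.42 ± 0.36 to -3.02 ± 0.13. The other 6 kept their direction, with differences of 5.39 for *Cpne4*, 4.02 for *Col6a4*, -1.51 for *Abhd14a*, 1.42 for *Hemk1*, 1.27 for *Cacna2d2* and 1.45 for *Bsn*, and the strains then did not overlap in any of the 9 genes.

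The lineage comparison, helper minus cytotoxic cells averaged over the strains, did not choose these genes and was tested with limma, with p-values adjusted over all tested genes. *Cpne4* and *Col6a4*, which were at or under 3 reads in all B6 libraries and passed the filter on low values only through FlipFlop libraries, are left out of the count. Of the other 7 genes, 3 differed by lineage (42.9%), 1 higher and 2 lower in helper cells, against 39.3% of all genes, a share near that of the background. *Tmem108* was lower in helper cells by 2.33 ± 0.36 (log2 difference -2.33, adjusted p = 0.00024), and the lineages did not overlap in B6 or in FlipFlop. *Cacna2d2* was lower in helper cells (-0.65 ± 0.11, adjusted p = 0.000364), and *Hemk1* was higher (0.79 ± 0.16, adjusted p = 0.00145). In both genes the lineages did not overlap in B6 but did overlap in FlipFlop. For *Cpne4* (-0.50 ± 0.12) and *Col6a4* (-0.90 ± 0.17) the fitted value lies in the FlipFlop libraries and is no difference shared by the strains, so it is given as a description. The other 4 genes did not pass, with 95% intervals of -1.61 to 1.19 for *Rpl29*, -0.35 to 0.59 for *Abhd14a*, -0.99 to 0.81 for *Abhd14b* and -0.72 to 0.15 for *Bsn*.

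The coreceptor comparison, CD4 minus CD8 cells averaged over the lineages, equals in size the inequality of the strain difference between the lineages divided by 2, and so uses the differences that chose the genes. It passed for 2 of 9 genes, against 5.49% of all genes. *Col6a4* was higher in CD4 than in CD8 cells (0.93 ± 0.17), and so was *Cpne4* (0.46 ± 0.12). With B6 at or under 3 reads, both values restate FlipFlop CD4 against FlipFlop CD8 libraries, as their lineage values do. They are given as a description. The call of *Cpne4* was lost under 15 alternative settings, with adjusted p from 0.0513 to 0.206. For the other 7 genes the helper minus cytotoxic difference of the strain differences had 95% intervals that ran from -2.18 to 0.99 for *Tmem108*, from -3.10 to 2.50 for *Rpl29*, from -0.31 to 1.58 for *Abhd14a* and from -1.20 to 2.40 for *Abhd14b*. The intervals were -1.31 to 0.06 for *Hemk1*, 0.06 to 0.99 for *Cacna2d2* (not past the threshold) and -0.36 to 1.39 for *Bsn*.

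**Figure D5:**
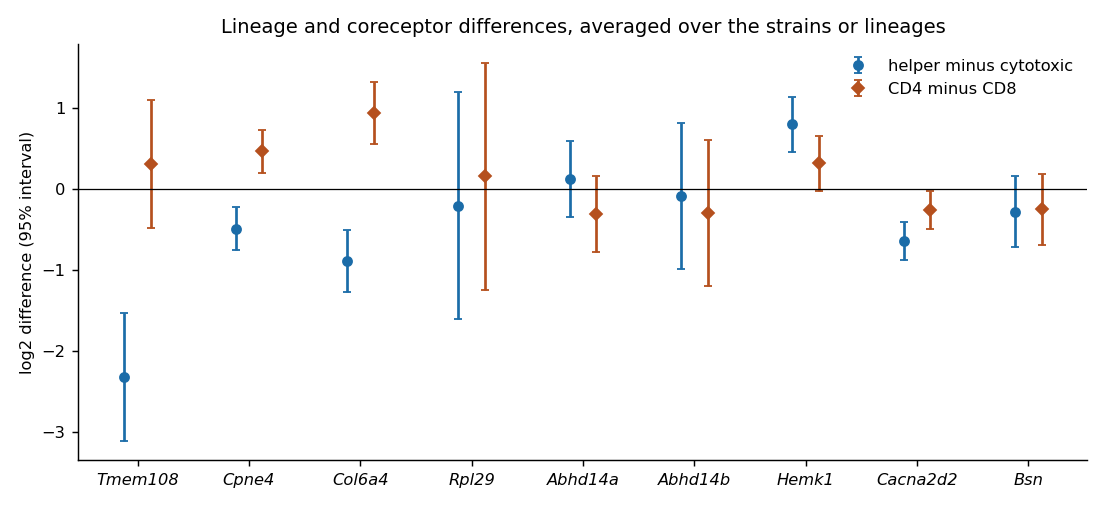
Points are differences on the scale of log2(CPM + 0.5) from a limma fit of 12 libraries, with 95% intervals, for helper minus cytotoxic cells (circles) and CD4 minus CD8 cells (diamonds). *Tmem108* has the lineage difference farthest from 0, at -2.33, and the intervals of *Rpl29* are the widest.

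Relatives of these genes elsewhere in the genome were followed by family, where 15.8% of all tested genes were called higher and 15.4% lower in FlipFlop. Of the other copines, 4 of 8 were tested, and *Cpne5*, on chromosome 17, was higher in FlipFlop (1.25 ± 0.18, adjusted p = 0.000532, limma) while *Cpne1*, on chromosome 2, was lower (-0.32 ± 0.07, adjusted p = 0.0089). Of 19 other ABHD genes 16 were tested, of which *Abhd17c* was higher and *Abhd11*, *Abhd16a* and *Abhd17a* were lower, each by 0.31 or less in size. Among the partners of HemK enzymes and release factors (5 of 6 tested), *Trmt112*, an activator of methyltransferases, was lower (-0.32 ± 0.09, adjusted p = 0.0158).

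Of 25 other calcium channel subunits 6 were tested, with 4 higher and 1 lower in FlipFlop, against 15.8% and 15.4% of all genes. *Cacng4* was at 2.54 ± 1.09 CPM in FlipFlop CD4 and at 0.152 CPM or less on average in the other groups, so its call rests on FlipFlop CD4 libraries. *Cacna1d* and *Cacnb1* differed by 0.71 ± 0.19 and 0.43 ± 0.11, and *Cacna1a* by -0.47 ± 0.12. Of 14 other active zone genes 4 were tested and 3 were higher, against 15.8% of all genes: *Rims3* (0.90 ± 0.10), *Erc1* (0.44 ± 0.09) and *Ppfia1* (0.31 ± 0.08). The median absolute difference was 0.27 for the copines, 0.14 for the ABHD genes, 0.06 for the HemK partners, 0.45 for the channel subunits and 0.38 for the active zone genes, against 0.16 for all genes.

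Of the other cytosolic ribosomal protein genes 87 of 91 were tested, and 71 were lower and 0 higher in FlipFlop, against 15.4% and 15.8% of all genes, with a median difference of -0.34. *Rplp0* differed by -1.10 ± 0.15, *Rps2* by -0.97 ± 0.08, *Rps4l* by -0.71 ± 0.19 and *Rps19* by -0.46 ± 0.10. The count was 42 with the TMM factor removed, where 756 of all tested genes were lower, against 1788 in the main fit. It was 13 without library 2 of both FlipFlop groups, where the number of all genes called for strain also fell. The difference of *Rpl29*, at -3.33, lay outside the range of this family, which went from -1.10 to -0.15. Summed with its 4 listed copies, *Rpl29* differed by -1.08, between *Rplp0* and *Rps2*, and by -1.28 without library 2 of both FlipFlop groups. Of 25 near-identical genes only these 4 are in the sum, so any reads assigned to the others are missing from it.

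With the sign of each strain difference taken out, Pearson's r over the 12 libraries between pairs of genes was 0.34 to 0.99 (36 pairs, median 0.83), as a description over libraries that share strain and library number. The choice of genes that differ between the strains fixes a positive r, so nothing is read from it. Outside the stretch, the 10 genes whose log2 values were most like the mean profile of the 9 had r from 0.95 to 0.97 in size. They were *Gm47283*, *Gm6344*, *Zfp456*, *Rsl1*, *Zfp429*, *Gm6685*, *Dock9*, *Sfxn2*, *Zfp369* and *Dlg3*. Of these, 5 lie on chromosome 13: *Gm6344*, the copy of *Rpl29*, and the zinc finger genes *Zfp456*, *Rsl1*, *Zfp429* and *Zfp369*. *Zfp429* was at 17.0 and 15.9 CPM on average in B6 CD4 and CD8, at 3.08 and 2.91 CPM in FlipFlop CD4 and CD8, and at 7.84 and 7.73 CPM in their library 2. *Sfxn2*, a mitochondrial carrier gene on chromosome 19, was at 17.6 and 19.6 CPM in B6 and at 6.88 and 5.05 CPM in FlipFlop CD4 and CD8, with 12.9 and 9.36 CPM in library 2.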

How the data were processed

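Total RNA of sorted LN CD4 and CD8 T cells (RNA integrity number over 9) was made into libraries with a low-input kit and sequenced by the authors as paired-end reads, which the methods say were aligned to mm10 with STAR, whereas the submitters' processing notes name Trimmomatic and TopHat. The counting program, its use of strand, the annotation and the filter on low values are not given in the sources used here. The authors deposited 1 table of normalized signal, which holds CPM scaled by TMM factors for 12809 genes. All identifiers matched GENCODE M21 on GRCm38. The values are multiples of a fraction of 1 read, which gives 26600000 to 33100000 reads per library, but only 84.8% to 86.4% of values under 100 CPM were whole reads to within 0.005 of a read, so no count test was run.

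Of the listed genes, 11595 reached 1 CPM in 3 or more libraries and were tested, and the other 1214 were left out. log2(CPM + 0.5) was fitted with limma 3.58.1 (R 4.3.3), with 1 mean for each of 4 groups and 12 libraries. Contrasts were strain, strain within each lineage, lineage and coreceptor, with p-values adjusted over all of these genes (Benjamini-Hochberg), and genes were called at an adjusted p under 0.05. The fit was tested on simulated data. Copies of *Rpl29* were found with BLAST 2.17.0 on GENCODE transcripts. As a check of the replicate numbers, the distance of each library from its group mean was correlated between CD4 and CD8 libraries of one number: 0.184, 0.0887 and 0.352 in B6 and 0.443, 0.271 and 0.513 in FlipFlop, so by a limit of 0.1 on each pair the numbers pair the FlipFlop libraries and not the B6 libraries. The main fit has no term for this pairing, so its p-values treat the FlipFlop libraries as independent. With the block of strain and replicate number fewer genes were called for strain, as given below. The members, the gene lists and the tests were chosen with earlier results of these data known. Beside the 9 genes, the text names up to 10 called genes of the stretch, the tested gene nearest on each side of it, the 10 genes outside it most like the mean profile, and up to 4 called genes of each related family, by size of the difference. Other genes named were chosen after their values were seen. Alternatives were other pseudocounts, filters and scalings, a replicate block, each library left out and other limits.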

Additional observations from a re-analysis of the deposited data

Results flagged for a closer look

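The strain differences of 2 of the 9 genes were picked out as unequal between the lineages, from the limma fit over all genes, and are given as a description since the strain differences chose the genes. For *Col6a4* the helper strain difference minus the cytotoxic one was -1.86 on the log2 scale (95% interval -2.62 to -1.10), and for *Cpne4* it was -0.92 (95% interval -1.44 to -0.39). The call of *Cpne4* was lost under 15 alternative settings (limma, adjusted p from 0.0513 to 0.206). Both genes were at or under 3 reads in all B6 libraries, and passed the filter on low values only through FlipFlop libraries, so each value compares FlipFlop CD8 with FlipFlop CD4 libraries, in which *Col6a4* averaged 3.28 and 12.7 CPM and *Cpne4* 13.3 and 26.5 CPM.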

How the results depend on the processing

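With 3 libraries per group and a depth at which 3 reads equal about 0.1 CPM, differences among the lowest values (*Gm3550*, *Abhd14b* in FlipFlop) rest on few reads. All 9 genes kept the direction of their strain difference under every alternative in which they were tested. With pseudocounts of 0.1 and 1, the strain difference of *Cpne4* was 7.46 and 4.28 and that of *Col6a4* 5.92 and 2.89, because the pseudocount stands for the B6 level. Summed with its listed copies, *Rpl29* differed by -1.08.

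With *Cpne4* and *Col6a4* included, the count of the 9 genes that differed by lineage was 5 with the replicate block. It was also 5 with the block of strain and replicate number and with any library left out. Among genes averaging at least 5 CPM it was 3, and that filter keeps only *Tmem108*, *Cpne4*, *Rpl29*, *Abhd14a* and *Hemk1*. Without *Cpne4* and *Col6a4* the main count was 3 of 7, against 39.3% of all genes. The share of all genes under the other settings is not given, so nothing is read from the steady count. For the coreceptor comparison, the main fit called 5.49% of all genes. The count of the 9 genes was 2 with the replicate block, 1 with the TMM factor removed and 1 with median-of-ratios rescaling. It was 1 with a pseudocount of 0.1 and 0 with the 5 CPM filter, which leaves out *Col6a4*. With each library left out it was 1 to 2 (limma). It was 2 without library 2 of both FlipFlop groups. With each library left out, coreceptor differences that did not pass a test ranged from -0.021 to 0.58 for *Tmem108*, -0.41 to 0.70 for *Rpl29* and -0.67 to 0.020 for *Abhd14b*, and lineage differences from -0.76 to 0.35 for *Rpl29*, -0.048 to 0.28 for *Abhd14a* and -0.41 to 0.28 for *Abhd14b*. Genes whose strains did not overlap numbered 8 to 9 with each library left out. They numbered 4 among the genes kept by the 5 CPM filter, all but *Abhd14a*. Among all genes the share was 15.2% in the main setting, and it was not counted under the others.

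Over all genes, 3615 were called for strain, 4295 with the replicate block, 2328 with the block of strain and replicate number, 1605 without library 2 of both FlipFlop groups, 40 by the stricter limit with 5-fold, and 2367 to 4008 with each library left out, lowest without FlipFlop CD8 library 3. Removing the TMM factor moved the median strain difference of all genes by 0.11 and the share of called genes that were higher in FlipFlop to 81.1%. Within the 6 Mb stretch the count of called genes stayed at 28 to 39 under the alternatives for which it was taken. The stricter limit was not among them. The overlap count was not run with a block, since it comes from no fit. The cause of these changes was not tested unless stated.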
